A study of Mus musculus with 8 samples.

Results

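Eph receptors and their ephrin ligands are a family of membrane proteins through which touching cells sort themselves into layers. The 8 genes described here are the EphB receptors Ephb2, Ephb3, Ephb4 and Ephb6, the EphA receptor Epha2, the ephrin-B ligands Efnb1 and Efnb2 and the ephrin-A ligand Efna1. They were picked by gene name from a table of 55880 genes, and each of the 8 names matched 1 row. The data are RNA-seq counts from small intestinal crypts of mice. Crypts are pits in the gut lining where stem cells divide. 4 libraries were labelled miR-29ab1-/-, for mice without the microRNA genes miR-29a and miR-29b-1, and 4 were labelled wild type (WT). The labels give C57BL/6N mice for both groups, the series title places the sampling before irradiation, and no age, sex, litter, day, pooling or deletion boundary is given in the sources used here. The series title concerns miR-29ab, stem cell fate and fatty acid oxidation.

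In the crypt, EphB2 and EphB3 are receptors whose genes are switched on by beta-catenin and TCF, the end of the Wnt pathway, and their protein is highest near the crypt base. The ligands ephrin-B1 and ephrin-B2 are found towards the villus. Repulsion between cells carrying receptor and cells carrying ligand keeps Paneth cells, the antimicrobial cells, at the crypt bottom and keeps dividing and differentiated cells apart.

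The microRNAs named by the genotype share a seed, the bases that pair with a target, and it is shown to let the target sites of the Eph genes be read against it. The mature sequences are from RefSeq (GRCm38.p6, chromosome 6, minus strand), with the seed, bases 2 to 8, in capitals.
miR-29a-3p: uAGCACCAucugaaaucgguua
miR-29b-3p: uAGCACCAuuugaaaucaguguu
The complement of the seed is TGGTGCT. In the longest annotated 3' untranslated region of each gene (GENCODE M21, GRCm38), this 7-base match was found in 2 of the 8 genes, Ephb3 and Epha2, once each, and in 13.3% of 20661 genes searched. The matches are shown with 11 bases on each side, read along the transcript, with the 7 bases in capitals.
Ephb3, chr16:21223026-21223054, plus strand: ctgcctaccctTGGTGCTgtcataaaagg
Epha2, chr4:141328566-141328594, plus strand: ccctgccgaccTGGTGCTggcccactgga
Neither match is followed by an A, which would extend it to the 8-base form held by 2.9% of the genes searched. The Ephb3 match starts at base 521 of a region of 788 bases, and the Epha2 match at base 59 of 866. Ephb2 has by far the longest region, 7783 bases, and no 7-base match. It holds 5 matches to the shorter 6-base form, the complement of bases 2 to 7. Ephb4, Efnb1 and Efnb2 hold 1 such match each, and the share of all genes with this form was not computed. A match of letters is a description and not a measured binding site.

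Total counts ranged from 13879472 to 17368666 per library. Mir29a had 0 counts in every library, and Mir29b-1 had 2 to 7 counts in each library labelled miR-29ab1-/- and 0 in each WT library. Because counts of a deleted hairpin go against the labels at face value, the groups are named by label throughout. Of 14897 genes tested, 3 passed an adjusted p of 0.05, all higher in the libraries labelled miR-29ab1-/- (edgeR quasi-likelihood test). The libraries held epithelial RNA. The summed level of 8 epithelial genes was 3890 to 7192 FPKM (fragments per kilobase of gene, scaled to library size) in libraries labelled miR-29ab1-/- and 3999.9 to 5410 FPKM in WT libraries. Markers of villus enterocytes, the absorptive cells above the crypt, were abundant and uneven. Their summed level over 15 genes was 6233 to 39746 FPKM in libraries labelled miR-29ab1-/-, with the highest in replicate 4, and 9348 to 17856 FPKM in WT libraries. Nothing in the labels says that replicates are separate animals, so p-values measure the spread between these libraries.

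None of the 7 tested genes differed between the groups beyond the spread between libraries, and Ephb6 was not tested. Ephb2, Ephb3, Ephb4, Epha2, Efnb1, Efnb2 and Efna1 passed the filter on low counts, and 0 of these 7 passed an adjusted p of 0.05, where 0.0201% of all tested genes did (edgeR). At an unadjusted p under 0.05 the count was again 0 of 7, against 2.7% of all tested genes. DESeq2 called 0 of the 7, against 0.148% of the genes it tested. In FPKM the ranges of the groups overlapped for all 8 genes, the untested Ephb6 included. In counts scaled to library size (CPM) the ranges did not overlap for 1.53% of all tested genes. The log2 fold changes of the 7 lay between -0.23 and 0.40, 4 above 0 and 3 below, with a median of 0.12, and the median of all tested genes was 0.011. The same edgeR adjusted p, 0.994, was obtained for each of the 7.

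**Figure D1:**
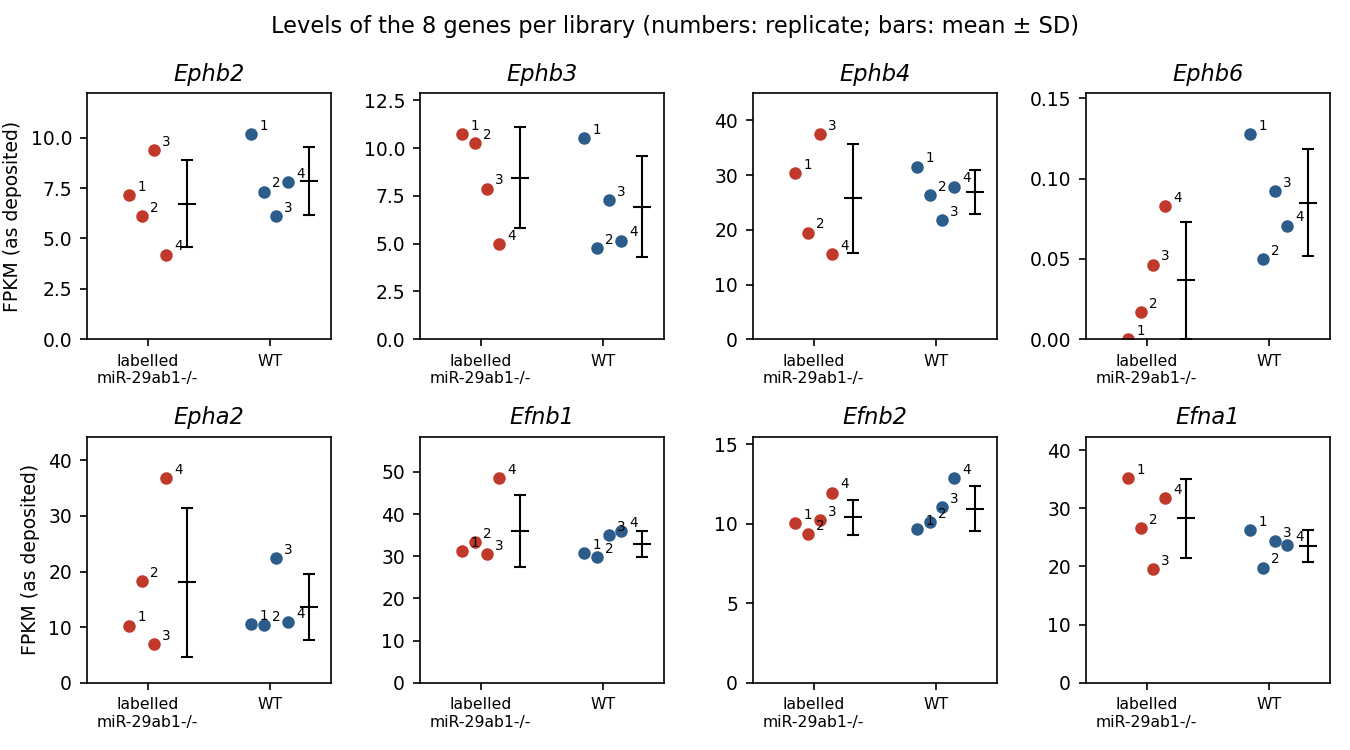
Level of each of the 8 genes in FPKM as deposited (vertical axes from 0, each panel with its own scale), with 1 point per library marked by its replicate number and bars for the mean ± SD of 4 libraries labelled miR-29ab1-/- (red) and 4 WT libraries (blue). In every panel the points of the groups overlap, and replicate 4 of the libraries labelled miR-29ab1-/- is lowest in its group for Ephb2, Ephb3 and Ephb4 and highest in its group for Epha2 and Efnb1.

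Among the receptors of the crypt base, Ephb2 (chromosome 4, 136647539 to 136835988, minus strand) had 7.15, 6.12, 9.38 and 4.20 FPKM in replicates 1 to 4 labelled miR-29ab1-/-, against 10.2, 7.32, 6.09 and 7.81 FPKM in WT replicates 1 to 4. The highest library was WT replicate 1 and the next highest replicate 3 labelled miR-29ab1-/-, so the groups overlap. The means were 6.71 ± 2.16 FPKM in libraries labelled miR-29ab1-/- and 7.84 ± 1.70 FPKM in WT libraries (SD, n = 4 each). The log2 fold change of Ephb2 was -0.23 (95% interval -0.78 to 0.32), a ratio of 0.854 (0.582 to 1.25). It stayed below 0 without each single library, from -0.43 to -0.053, the value nearest 0 without replicate 4 labelled miR-29ab1-/-.

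Ephb3, the receptor most tied to Paneth cell position (chromosome 16, 21204755 to 21223305, plus strand), had 10.7, 10.3, 7.88 and 4.97 FPKM in libraries labelled miR-29ab1-/-, against 10.5, 4.75, 7.30 and 5.16 FPKM in WT libraries. Both groups held libraries near 5 and near 10 FPKM. The means were 8.45 ± 2.63 FPKM in libraries labelled miR-29ab1-/- and 6.93 ± 2.64 FPKM in WT libraries (SD, n = 4 each). The log2 fold change of Ephb3 was 0.28 (95% interval -0.41 to 0.98), and between 0.14 and 0.56 in the fits that each omit a library. The Paneth list, beside which Ephb3 is set here, had a mean of 10.1 ± 0.70 log2 CPM (counts scaled to library size) in libraries labelled miR-29ab1-/- and 9.72 ± 0.24 log2 CPM in WT libraries (SD, n = 4 each). How Ephb3 and this list ran together over the libraries is given below, and the part of the list in the Ephb3 values was not tested.

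Ephb4, a receptor for ephrin-B2 best known from veins and also made by intestinal epithelium (chromosome 5, 137350109 to 137378669, plus strand), had the highest deposited FPKM of the EphB genes. It had 30.4, 19.5, 37.4 and 15.6 FPKM in libraries labelled miR-29ab1-/-, against 31.5, 26.3, 21.8 and 27.9 FPKM in WT libraries. The libraries labelled miR-29ab1-/- spanned the WT range on both sides. The means were 25.7 ± 10.0 FPKM in libraries labelled miR-29ab1-/- and 26.9 ± 4.04 FPKM in WT libraries (SD, n = 4 each), a log2 fold change of -0.067 (95% interval -0.66 to 0.53). The direction turned without replicate 2 labelled miR-29ab1-/- (0.044), replicate 4 labelled miR-29ab1-/- (0.12) or WT replicate 1 (0.024). Ephb4 overlaps Zan, on the other strand, by 33 bases at its end.

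Because Ephb4 and Efnb2 are also genes of blood vessels, markers of endothelial cells were read beside them. Ephb4 had 7237 counts summed over the libraries labelled miR-29ab1-/- and 8074 over the WT libraries, while over all 8 libraries the endothelial genes Cdh5, Kdr, Flt1 and Cldn5 had 4, 8, 1 and 2 counts and Emcn had 0. Other markers of the list were detected, with 978 counts for Nr2f2, 555 for Esam, 480 for Lyve1, 231 for Pecam1 and 194 for Vwf over all 8 libraries, at no more than 2.24 FPKM in any library. The summed level of all 18 endothelial markers was 9.58 to 12.5 FPKM in libraries labelled miR-29ab1-/- and 9.46 to 10.8 FPKM in WT libraries, and much of it came from Dll4, at 4.39 to 6.96 FPKM, a Notch ligand that crypt epithelium also makes. Of the 18 markers, 8 were tested and 0 passed the adjusted threshold. The part of endothelial RNA in the levels of Ephb4 and Efnb2 was not tested.

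Ephb6, a receptor without kinase activity (chromosome 6, 41605482 to 41620509, plus strand), was barely detected. It had 0, 1, 3 and 4 counts in libraries labelled miR-29ab1-/-, against 8, 3, 6 and 4 counts in WT libraries. The sum was 8 counts in libraries labelled miR-29ab1-/- (exact Poisson 95% interval 3.45 to 15.8) and 21 counts in WT libraries (13.0 to 32.1), and these intervals cover counting error only. The groups overlap, both with a library of 4 counts, and the gene did not pass the filter and was not tested here. In the authors' deposited table Ephb6 has a log2 fold change of -1.24 with an unadjusted p of 0.181.

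Epha2, an EphA receptor of epithelia that binds ephrin-A1 (chromosome 4, 141301240 to 141329384, plus strand), varied most. It had 10.3, 18.3, 6.91 and 36.8 FPKM in libraries labelled miR-29ab1-/-, against 10.6, 10.3, 22.5 and 11.0 FPKM in WT libraries. The lowest and the highest library both carry the miR-29ab1-/- label, and 1 WT library stood well above the other 3. The means were 18.1 ± 13.4 FPKM in libraries labelled miR-29ab1-/- and 13.6 ± 5.93 FPKM in WT libraries (SD, n = 4 each). The log2 fold change of Epha2 was 0.40 (95% interval -0.71 to 1.52), and without replicate 4 labelled miR-29ab1-/- it was -0.20.

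Among the ligands, Efnb1, ephrin-B1 (chromosome X, 99136130 to 99148991, plus strand), had the highest mean FPKM of the 8 genes. It had 31.3, 33.3, 30.6 and 48.6 FPKM in libraries labelled miR-29ab1-/-, against 30.7, 29.8, 35.1 and 35.9 FPKM in WT libraries. Apart from replicate 4 labelled miR-29ab1-/- the 7 libraries lay close together. The means were 35.9 ± 8.49 FPKM in libraries labelled miR-29ab1-/- and 32.9 ± 3.06 FPKM in WT libraries (SD, n = 4 each), a log2 fold change of 0.12 (95% interval -0.24 to 0.49). Without replicate 4 labelled miR-29ab1-/- it was -0.048.

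Efnb2, ephrin-B2 (chromosome 8, 8617434 to 8661242, minus strand), had 10.1, 9.34, 10.2 and 12.0 FPKM in libraries labelled miR-29ab1-/-, against 9.68, 10.1, 11.1 and 12.9 FPKM in WT libraries. The groups overlapped over nearly their whole range. The log2 fold change of Efnb2 was -0.076, and its 95% interval, -0.36 to 0.20, was the narrowest of the 7. That interval runs from a ratio of 0.781 to 1.15. Without WT replicate 4 the log2 fold change was 0.0072. E230020D15Rik, Gm45074 and Gm45073 overlap the span of Efnb2 on the same strand, by 5899, 1240 and 4247 bases. They had 123, 59 and 26 counts over all 8 libraries, and their part in the Efnb2 counts was not tested.

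Efna1, ephrin-A1, a ligand anchored in the outer leaflet of the membrane (chromosome 3, 89271733 to 89281142, minus strand), had 35.2, 26.5, 19.5 and 31.8 FPKM in libraries labelled miR-29ab1-/-, against 26.3, 19.8, 24.3 and 23.7 FPKM in WT libraries. 3 of the 4 libraries labelled miR-29ab1-/- were at or above the highest WT library, and the fourth was below the lowest. The means were 28.3 ± 6.82 FPKM in libraries labelled miR-29ab1-/- and 23.5 ± 2.72 FPKM in WT libraries (SD, n = 4 each). Efna1 had the smallest unadjusted p of the 7, 0.187 (edgeR), with a log2 fold change of 0.26 (95% interval -0.15 to 0.67), and it ran from 0.13 to 0.40 without single libraries.

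**Figure D2:**
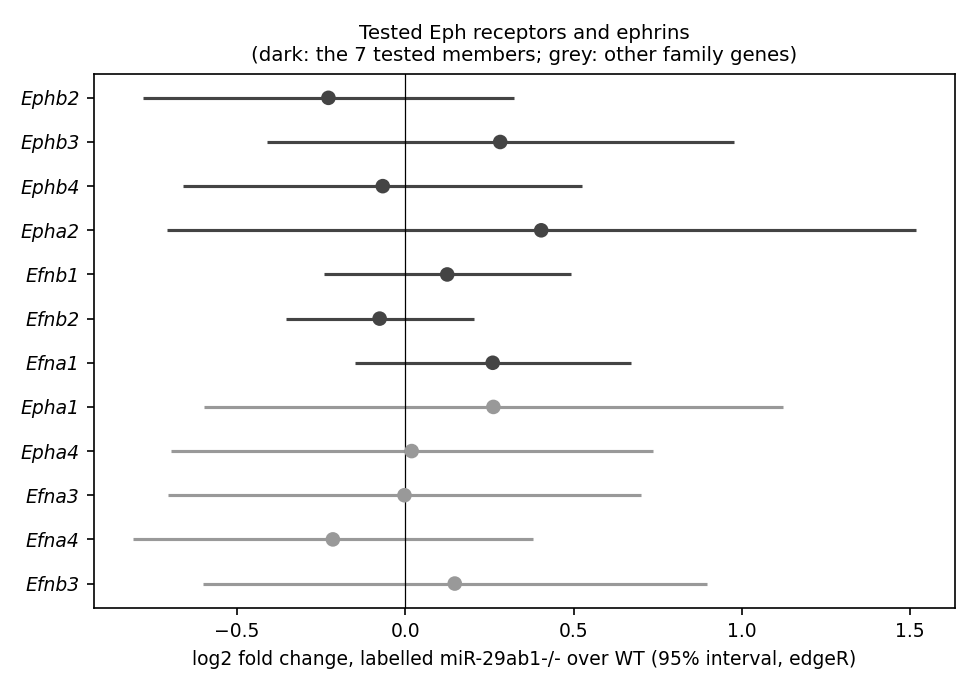
Log2 fold change of the libraries labelled miR-29ab1-/- over WT libraries (horizontal axis; points are edgeR estimates and lines 95% intervals, n = 4 libraries each) for the 7 tested members (dark) and 5 other tested genes of the family (grey). Every interval holds 0, and the widest is that of Epha2, from -0.71 to 1.52.

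By level per length in WT libraries the order was Efnb1, Ephb4, Efna1, Epha2, Efnb2, Ephb2, Ephb3 and Ephb6. Each neighbour in this order overlapped the next in its range of 4 WT libraries, with the exception of Ephb6, which lay far below Ephb3. The same order held for the means of the libraries labelled miR-29ab1-/-, except that Efna1 stood above Ephb4 and Ephb3 above Ephb2. FPKM divides by the length of all exons of a gene together, and for Ephb2 that length is 12608 bases while its annotated coding transcripts are 10902, 4804 and 3653 bases long. The place of Ephb2 in the order therefore depends on which transcript is made, which gene counts do not show.

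The balance of crypt-base receptor to ligand was read as the log2 ratio of summed Ephb2 and Ephb3 FPKM to summed Efnb1 and Efnb2 FPKM. It was -1.21, -1.38, -1.24 and -2.72 in libraries labelled miR-29ab1-/-, against -0.96, -1.73, -1.79 and -1.91 in WT libraries. The ratio was lowest in replicate 4 labelled miR-29ab1-/- and highest in WT replicate 1, and the groups overlap. At the deposited lengths the summed ligand FPKM was the higher in every library. The values compare libraries only, since the size of the ratio depends on the length taken for Ephb2. The means were -1.64 ± 0.73 in libraries labelled miR-29ab1-/- and -1.60 ± 0.43 in WT libraries (SD, n = 4 each). Their difference, -0.043, turned to 0.32 without replicate 4 labelled miR-29ab1-/- and to 0.17 without WT replicate 1.

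Of the other 14 genes of the family, 4 had 0 counts in every library, Epha5, Epha6, Epha8 and Epha10, and 5 passed the filter. None of the 5 passed the adjusted threshold (edgeR), 3 were above 0 and 2 below, with a median log2 fold change of 0.019. Epha1, an EphA receptor, was the most abundant of them, at 26.9 ± 15.6 FPKM in libraries labelled miR-29ab1-/- and 22.4 ± 7.16 FPKM in WT libraries (SD, n = 4 each). For Epha1 the log2 fold change was 0.26 (SE 0.38), and -0.22 without replicate 4 labelled miR-29ab1-/-. The ligand genes Efna4, Efna3 and Efnb3 had log2 fold changes of -0.22 (SE 0.26), -0.0024 (SE 0.31) and 0.15 (SE 0.33), and the receptor gene Epha4 had 0.019 (SE 0.32). The direction of Efna3 flips under other scalings. Among all tested genes of the family, Efnb1, Ephb4, Efna1 and Epha1 had the highest levels.

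The genes through which Eph receptors and ephrins signal, or by which they are shed, showed no difference past the threshold. All 30 were tested, 0 passed the adjusted threshold, 16 were above 0 and 14 below, and the median log2 fold change was 0.0059. Of all tested genes 52.0% were above 0. At an unadjusted p under 0.05 the count was 1 of 30 (edgeR), against 2.7% of all tested genes. Fyn, a Src-family kinase that acts below Eph receptors and also in T cells, had the smallest p. It was at 13.6 to 37.5 CPM in libraries labelled miR-29ab1-/-, against 9.28 to 18.7 CPM in WT libraries, so the groups overlap, with a log2 fold change of 1.19 (SE 0.33, edgeR unadjusted p = 0.00537 and adjusted p = 0.994). Acp1, a small phosphatase that binds Eph receptors, had -0.36 (SE 0.21), and Ptpn13, a phosphatase of ephrin-B, had -0.49 (SE 0.32). The T cell list had a mean of 3.23 ± 0.44 log2 CPM in libraries labelled miR-29ab1-/- and 3.67 ± 0.49 log2 CPM in WT libraries (SD, n = 4 each), and its part in the Fyn value was not tested.

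Ephb2 and Ephb3 are Wnt and TCF targets, and 18 other such targets, some of them also stem cell markers, were read beside them. None passed the adjusted threshold, 15 of the 18 were above 0, where 52.0% of all tested genes were, and their median log2 fold change was 0.12. That median ran from 0.030 without replicate 1 labelled miR-29ab1-/- to 0.28 without replicate 4 of that label. At an unadjusted p under 0.05 the count was 2 of 18 (edgeR), against 2.7% of all tested genes. Notum, a secreted Wnt inhibitor, was at 0.707 to 3.38 CPM in libraries labelled miR-29ab1-/- and 0.188 to 0.605 CPM in WT libraries (log2 fold change 2.13, edgeR unadjusted p = 0.0031 and adjusted p = 0.994). Nkd1, a Wnt feedback inhibitor, was at 12.6 to 19.3 CPM in libraries labelled miR-29ab1-/- and 3.95 to 10.8 CPM in WT libraries. Its means were 15.4 ± 3.27 CPM in libraries labelled miR-29ab1-/- and 7.24 ± 2.83 CPM in WT libraries (SD, n = 4 each). The log2 fold change of Nkd1 was 1.09 (edgeR unadjusted p = 0.0042 and adjusted p = 0.994). The ranges did not overlap for Notum and Nkd1, as for 1.53% of all tested genes. Ephb2, at -0.23, lay below the median of the list and Ephb3, at 0.28, above it. The TCF core CTTTGA, searched on both strands from 250 bases before to 50 bases after annotated starts, was found in 1 of 9 windows of the 8 genes, that of Epha2, and in 16% of 32851 windows of all genes. Other forms of the core and bases outside the windows were not searched, so a window without a match does not show that a gene lacks TCF sites.

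Several members moved together across the libraries. Ephb2 and Ephb4 were both low in replicate 4 labelled miR-29ab1-/-, by 0.76 and 0.72 log2 CPM below the mean of the 8 libraries, and both high in replicate 3 of the same label, by 0.41 and 0.55. Epha2 ran the other way, 1.41 above its mean in replicate 4 and 0.99 below it in replicate 3. The 7 members and 4 marker lists were compared in 49 relations over the 8 libraries, and 15 passed an adjusted p of 0.05 by Pearson's r and 3 by Spearman's rho (exact permutation tests over 40320 arrangements, two-sided, Benjamini-Hochberg adjusted over the 49).

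**Figure D3:**
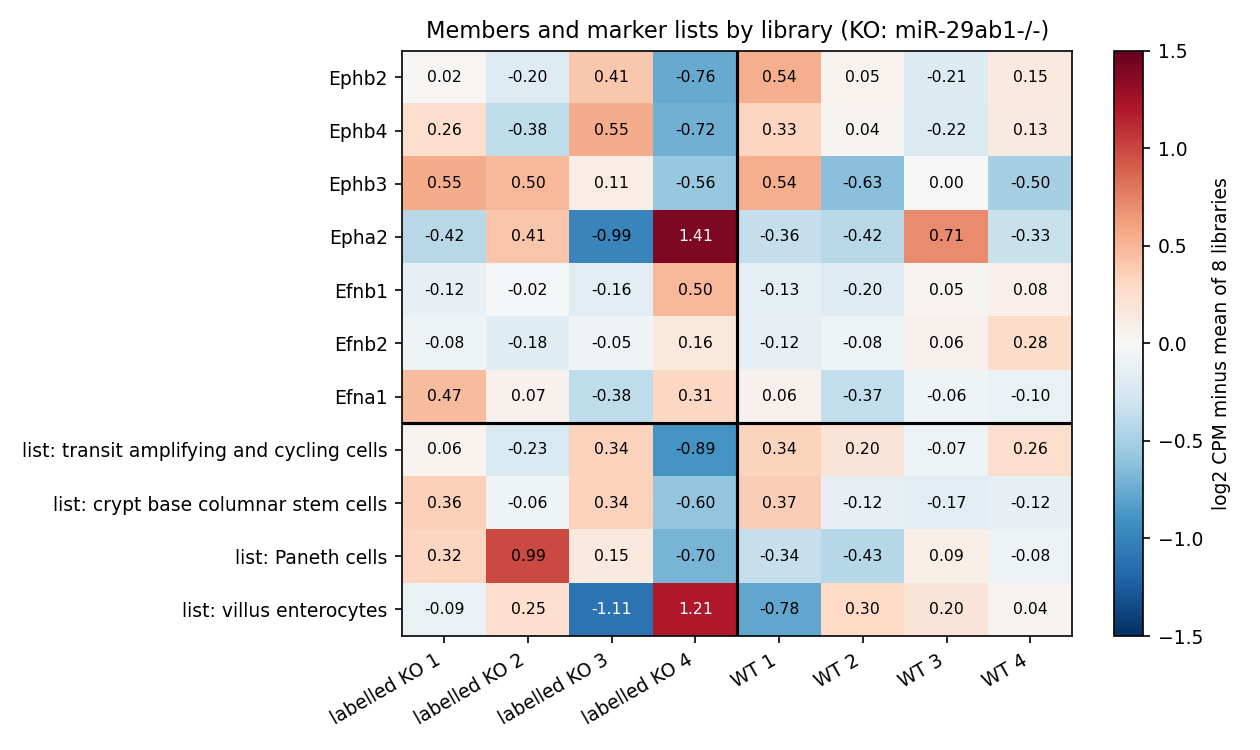
Log2 CPM minus the mean of the 8 libraries (colour and printed value) for the 7 tested members and 4 marker lists (rows, means over the list's genes) in each library (columns, the 4 labelled miR-29ab1-/-, marked labelled KO, left of the 4 WT). Ephb2, Ephb4 and the cycling, stem cell and Paneth lists share their low in replicate 4 labelled miR-29ab1-/-. In that library Epha2, Efnb1 and the enterocyte list are at their highest.

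Ephb2 and Ephb4 were correlated with r = 0.93 (exact permutation p = 0.000843, adjusted p = 0.0112) and rho = 0.88 (adjusted p = 0.071). Without the libraries farthest from the median of Ephb2, replicate 4 labelled miR-29ab1-/- and WT replicate 1, r was 0.93, and on deviations from the group means it was 0.94. Ephb4 and Epha2 were correlated with r = -0.96 (exact permutation adjusted p = 0.0112) and rho = -0.81 (adjusted p = 0.152), and r was -0.86 without replicates 3 and 4 labelled miR-29ab1-/-. Ephb2 and Epha2 had r = -0.90 (exact permutation adjusted p = 0.0161) and rho = -0.74 (adjusted p = 0.187), with r = -0.94 without the same libraries as for Ephb4 with Ephb2. On deviations from the group means these were -0.96 and -0.92, close to the pooled values. All 3 relations lost the adjusted threshold without replicate 4 labelled miR-29ab1-/-, with r = 0.86 for Ephb2 and Ephb4 (exact permutation adjusted p = 0.159), -0.91 for Ephb4 and Epha2 (0.156) and -0.77 for Ephb2 and Epha2 (0.249).

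Efnb1 was correlated with Epha2 (r = 0.85, rho = 0.88, exact permutation adjusted p = 0.0376 for r and 0.071 for rho) and with Ephb4 (r = -0.80, rho = -0.62, exact permutation adjusted p = 0.0433 for r and 0.297 for rho). Without the 2 libraries farthest from the median r was 0.48 with Epha2 and -0.44 with Ephb4. Ephb2 and Efnb1, the receptor and the ligand most often paired in models of the crypt, had r = -0.82 (rho = -0.62, exact permutation adjusted p = 0.0522 for r and 0.297 for rho), and -0.44 without the 2 farthest. In these 3 relations of Efnb1 r came nearer 0 without the libraries left out, which each time included replicate 4 labelled miR-29ab1-/-. Without that library alone, r of Efnb1 was 0.64 with Epha2, -0.54 with Ephb4 and -0.49 with Ephb2. Efnb1 with Ephb3 had r = -0.45 (rho = -0.17, exact permutation adjusted p = 0.457 for r and 0.841 for rho), and -0.69 without the 2 farthest. Ephb3 did not follow Ephb2 closely, with r = 0.40 (rho = 0.29, exact permutation adjusted p = 0.484 for r and 0.722 for rho), and none of its relations passed the threshold. Ephb3 had r = 0.64 with the Paneth list (rho = 0.69, exact permutation adjusted p = 0.18 for r and 0.262 for rho). With the stem cell list Ephb3 had r = 0.73 (rho = 0.83, exact permutation adjusted p = 0.0774 for r and 0.126 for rho). Without the 2 farthest libraries, r of Ephb3 was 0.33 with the Paneth list and 0.59 with the stem cell list.

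**Figure D4:**
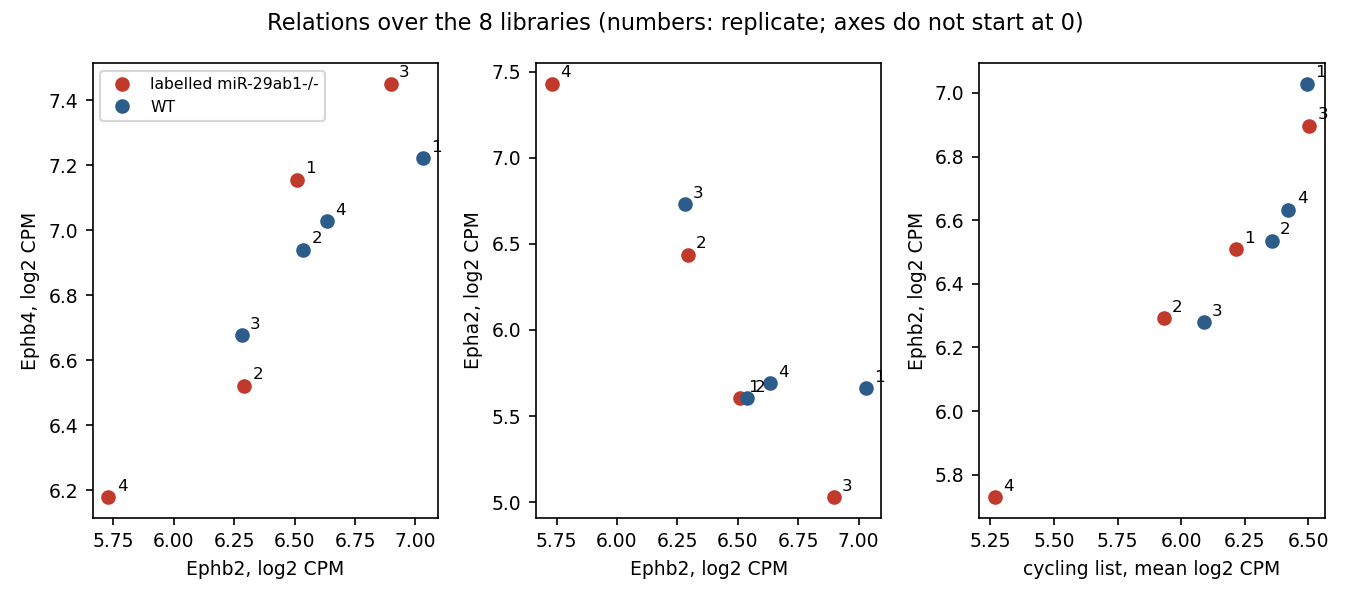
Ephb4 against Ephb2, Epha2 against Ephb2, and Ephb2 against the mean of the cycling list, all in log2 CPM, with 1 point per library marked by replicate number (red, labelled miR-29ab1-/-; blue, WT). Points of both colours lie along the same trends, r = 0.93, -0.90 and 0.95, and replicate 4 labelled miR-29ab1-/- lies at the end of each.

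The levels of Ephb2 and Ephb4 were correlated with the cycling, enterocyte and stem cell lists and not, past the threshold, with the Paneth list. With 14 genes of cycling transit amplifying cells, Ephb2 had r = 0.95 (exact permutation p = 9.92e-05, adjusted p = 0.00486; rho = 0.95, adjusted p = 0.0365) and Ephb4 had r = 0.92 (adjusted p = 0.0112; rho = 0.93, adjusted p = 0.0365). With the enterocyte list, Ephb2 had r = -0.93 (exact permutation adjusted p = 0.0161; rho = -0.76, adjusted p = 0.18) and Ephb4 had r = -0.92 (adjusted p = 0.0112; rho = -0.93, adjusted p = 0.0365). Without the 2 farthest libraries, r with the cycling list was 0.92 for Ephb2 and 0.86 for Ephb4, and with the enterocyte list -0.84 and -0.72. Epha2 had r = -0.91 with the cycling list (rho = -0.79, exact permutation adjusted p = 0.0161 for r and 0.152 for rho) and -0.84 without the 2 farthest. Without replicate 4 labelled miR-29ab1-/- none of these 5 passed, and r was 0.90 for Ephb2 and 0.88 for Ephb4 with the cycling list, -0.87 and -0.84 with the enterocyte list and -0.83 for Epha2 with the cycling list (exact permutation adjusted p between 0.156 and 0.174). With the stem cell list, Ephb2 had r = 0.86 (rho = 0.74, exact permutation adjusted p = 0.0376 for r and 0.187 for rho) and Ephb4 had r = 0.89 (rho = 0.79, adjusted p = 0.0324 for r and 0.152 for rho). Without the 2 farthest libraries these were 0.58 for Ephb2 and 0.71 for Ephb4, and they passed in 3 and 5 of the 8 sets without 1 library. Epha2 had r = 0.84 with the enterocyte list (rho = 0.60, exact permutation adjusted p = 0.0376 for r and 0.309 for rho). With the stem cell list, r was -0.83 for Epha2 (rho = -0.60, exact permutation adjusted p = 0.0433 for r and 0.309 for rho). For Efnb1 it was -0.82 (rho = -0.52, exact permutation adjusted p = 0.0433 for r and 0.385 for rho). Without the 2 farthest libraries these were 0.69, -0.51 and -0.49, and they passed in 2, 2 and 1 of the 8 sets. With the Paneth list, r was 0.11 for Ephb2 (rho = 0.024, exact permutation adjusted p = 0.858 for r and 0.977 for rho) and 0.089 for Ephb4 (rho = 0.21, adjusted p = 0.875 for r and 0.814 for rho). These r values near 0 depended on single libraries. Without replicate 4 labelled miR-29ab1-/- they were -0.54 for Ephb2 and -0.48 for Ephb4. Without the 2 farthest libraries they were -0.40 and -0.65.

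By label, 0 genes of the cycling, enterocyte, Paneth and stem cell lists passed the adjusted threshold (edgeR). All 14 cycling genes were below 0 (median log2 fold change -0.34), 13 of 15 enterocyte genes above 0 (0.33), 11 of 13 Paneth genes above 0 (0.28) and 10 of 15 stem cell genes above 0 (0.036), where 52.0% of all tested genes were above 0. Without replicate 4 labelled miR-29ab1-/- the enterocyte median turned to -0.20 and the cycling median was -0.15, and without replicate 2 of that label the Paneth median was 0.035. The enterocyte median was 0.078 with limma-voom and 0.10 with the replicate number as a block. The stem cell median turned without replicate 1 (-0.093) or 3 (-0.041) labelled miR-29ab1-/- or WT replicate 4 (-0.012). The cycling list had a mean of 5.98 ± 0.53 log2 CPM in libraries labelled miR-29ab1-/- and 6.34 ± 0.18 log2 CPM in WT libraries, and the enterocyte list 10.6 ± 0.96 log2 CPM in libraries labelled miR-29ab1-/- and 10.5 ± 0.49 log2 CPM in WT libraries (SD, n = 4 each). CPM are shares of a library, so a list that takes more of it leaves less for other genes. In RNA from whole crypts, fewer cells of a type and less RNA per cell cannot be told apart. The part of cell makeup in the levels of Ephb2, Ephb4 and Epha2 was not tested.

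Among 9789 genes of mean log2 CPM above 3, those with the profile most like Ephb2 over the 8 libraries were Srbd1 (r = 0.998, rho = 0.98), Racgap1 (r = 0.998, rho = 0.95), which acts in cell division, and Rad50 (r = 0.995, rho = 0.98), which acts in DNA repair. Most like Ephb3 were St5 (r = 0.973), Ier2 (r = 0.964) and Adgre5 (r = 0.947). Most like Efnb1 were Tjap1 (r = 0.991), a tight junction protein, Zfand2b (r = 0.987) and Prkcsh (r = 0.981). These are the highest of many values over 8 libraries that share their scaling, and they are given as a description without a test.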

How the data were processed

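RNA was extracted with TRIzol and made into libraries with a directional kit, per the labels' protocols, and the tools HISAT2 and DESeq2 come from the submitters' processing notes. For the counter, its strand setting and the build, the sources used here say nothing. The coordinates of the 8 genes equal those of GENCODE M21 (GRCm38). The deposited table holds raw counts per gene. Its deposited FPKM are the counts over gene length and over a size factor per library. Group means by the authors, a deposited signal of scaled counts, and their deposited log2 fold changes and p-values were used only where named. A second deposited table of 670 genes holds none of the 8 and was not used.

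Counts were tested with edgeR 4.0.16 (R 4.3.3) by its quasi-likelihood test (robust fit, TMM scaling, filterByExpr) and Benjamini-Hochberg adjustment over all 14897 genes tested, checked on simulated data. The SE is the log2 fold change over the square root of F, and 95% intervals use its t distribution. Log2 CPM use a prior count of 2. Alternatives were RLE, DESeq2 1.42.0, limma-voom (3.58.1), other filters, a replicate block and leaving out each library. Members and lists were chosen with earlier results of these data known. Named genes are the members, tested family genes, up to 3 genes of smallest p per list and the 3 nearest profiles of Ephb2, Ephb3 and Efnb1. The lists not described in the text had no gene past the threshold. Their median log2 fold changes were -0.90 for B and plasma cells, -0.39 for myeloid cells, -0.39 for fibroblasts and smooth muscle and 1.47 for red blood cells. The B and plasma cell median was 0.17 without WT replicate 2. The fibroblast median was 0.064 without WT replicate 1. The red blood cell median was 0.53 without replicate 4 labelled miR-29ab1-/-. Intervals on counts cover counting error only. Depth was 13879472 to 17368666 counts per library. No 2 libraries of a group were alike enough to be 1 library sequenced again. Correlations over libraries were chosen after the data were seen.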

Additional observations from a re-analysis of the deposited data

Results flagged for a closer look

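In 18 groups of 4 libraries (the 8 genes and the receptor to ligand ratio, by label), 3 held an outlying library. Its gap to its nearest neighbour exceeded Dixon's critical share of the range, where chance gives about 1 in 20 groups of normal values. The 18 groups are not independent, since the ratio is made from genes that were also examined singly. Epha2 was at 22.5 FPKM in WT replicate 3, a gap of 0.948 of the WT range. Efnb1 was at 48.6 FPKM in replicate 4 labelled miR-29ab1-/-, a gap of 0.847 of the range of that label. The log2 ratio of EphB to ephrin-B FPKM was -2.72 in replicate 4 labelled miR-29ab1-/-, a gap of 0.888. This ratio includes Efnb1, so the flags of that library share values.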

How the results depend on the processing

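Of 98 values of the 7 tested members under other settings, 92 kept their direction, and no member was called under any setting tried (0 in all). Direction turned in fits without single libraries, whose log2 fold changes ran from -0.30 to 0.12 for Ephb4, -0.20 to 0.75 for Epha2, -0.048 to 0.19 for Efnb1, -0.14 to 0.0072 for Efnb2, -0.22 to 0.45 for Epha1, -0.077 to 0.31 for Efnb3, -0.19 to 0.34 for Epha4 and -0.24 to 0.17 for Efna3. Efna3 also turned, to 0.00096 with RLE, 0.0015 with DESeq2, 0.00047 with no filter and 0.0014 with a stricter filter, 5 CPM. These values lie near 0 beside their SE. Over all genes, DESeq2 called 19 higher and 3 lower and edgeR with no filter called 5 higher, against 3 and 0; without single libraries the count was 2 to 3 higher and 0 lower. The ratio difference ran from -0.19 to 0.32. Same-numbered libraries deviated with r of 0.075, 0.035, -0.39 and -0.087, and not every library was closest to its own number. These values gave no sign of pairing by number, and with 4 libraries a group they cannot exclude it. The replicate block called 2 genes higher and 0 lower and 0 members. Of the correlations, Ephb2 with Ephb4, Ephb2 with Epha2 and Ephb4 with Epha2 passed in 7 of the 8 sets without 1 library, all but that without replicate 4 labelled miR-29ab1-/-, and Epha2 with Efnb1 in 2; these sets were chosen after the data were seen. Ephb6, with 0 to 8 counts per library, was below the filter and not tested.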
